A study of Mus musculus with 2 samples.

Results

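Deadenylation factors shorten the poly(A) tail of messenger RNA, and the transcripts described here encode 9 of them: the PAN complex genes Pan2 and Pan3, the poly(A)-specific ribonuclease gene Parn, the adaptor genes Tob1, Tob2, Btg1, Btg3 and Btg4, and the poly(A)-binding protein gene Pabpc1. They were chosen by gene symbol out of 20161 named genes on the array, and an older alias was accepted where the gene ID was the same, which applied to Pan2, filed as Usp52. The 9 genes had 19 of the 41174 non-control probes. Of these, 14 probes of 8 genes gave a signal clear of background on 2 of 2 arrays in the FLAG IP, the input or both and could be tested, and Btg4 was the member that could not. The gene IDs in the files are 103135 for Pan2, 72587 for Pan3, 74108 for Parn, 22057 for Tob1, 57259 for Tob2, 12226 for Btg1, 12228 for Btg3, 56057 for Btg4 and 18458 for Pabpc1.

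The FLAG IP group was RNA recovered with anti-FLAG M2 agarose from the gonads of male MCH embryos (embryonic day 14.5), and the input group was RNA of the same kind of gonad with no antibody. Gonads of both groups carried the transgene that the labels name Tg-Nanos2 enhancer-3xFLAG-Nanos2-3'UTR, so the tagged protein came from a transgene under a Nanos2 enhancer, and the labels do not give the state of the endogenous gene. Each group had 2 single-colour Agilent whole mouse genome arrays. The series text gives them as biological duplicates without stating how many embryos were pooled, and p-values measure only the spread between these arrays. No precipitate from gonads without the transgene was analysed here, so RNA that binds the agarose without the tagged protein was not measured. The input is whole gonad, so a lower input level can reflect fewer cells that make a transcript or less of it per cell, which cannot be told apart.

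As background, a tail is trimmed in steps. The PAN2-PAN3 complex acts early on long tails coated with poly(A)-binding protein, and the CCR4-NOT complex removes the rest. PARN is a separate deadenylase that also binds the cap and trims the ends of some noncoding RNAs. TOB and BTG proteins share a domain that binds the CNOT7 or CNOT8 nuclease of CCR4-NOT, and TOB proteins also bind poly(A)-binding protein, which brings the nuclease to the tail. NANOS2 is a male germ cell RNA-binding protein that works with CCR4-NOT. The measurements below are of the members' own mRNAs in the precipitate, not of their proteins.

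The FLAG IP arrays were unequally bright. Their processed signal, a background-corrected brightness given by the scanner software, had a 75th percentile of 55.7 and 608 intensity units on FLAG IP replicates 1 and 2, against 1026 and 1038 on input replicates 1 and 2. Levels are therefore given relative to the 75th percentile of each array, and every direction below is relative to it. Log2 fold changes are FLAG IP over input with the moderated SE from limma (n = 2 arrays each). The median SD between replicates over all genes tested was 0.304 on the log2 scale in the FLAG IP and 0.060 in the input. Nanos2, the gene of the tagged protein, stood at relative levels of 1.48 and 1.22 in the FLAG IP, against 0.398 and 0.337 in the input (3.67-fold). All 10 germ cell markers listed were measured, and their summed relative level was 170 and 188 in the FLAG IP, against 91.5 and 96.8 in the input, with 5 called higher and 1 lower, and Dazl and Ddx4 at 2.12 and 1.69 on the log2 scale. All 8 Sertoli cell markers were lower, with summed relative levels of 8.37 and 9.22 in the FLAG IP, against 46.3 and 45.1 in the input. Leydig markers (6 of 6 lower, such as Insl3) summed to 20.5 and 19.5 in the FLAG IP, against 140 and 128 in the input, and interstitial and muscle markers (6 of 6 lower, such as Col3a1) to 33.9 and 24.9 in the FLAG IP, against 189 and 181 in the input. Endothelial markers (3 of 6 lower, Tie1 among them) summed to 2.97 and 1.98 in the FLAG IP, against 6.94 and 5.52 in the input. Macrophage markers (3 of 4 lower, Lyz2 among them) summed to 0.751 and 0.798 in the FLAG IP, against 4.14 and 4.03 in the input, and erythroid markers (5 of 5 lower, such as Hba-x) to 18.6 and 14.7 in the FLAG IP, against 173 and 163 in the input. No measured marker of these lists was below background on all arrays of a group. Tie1 and Hba-x, like some other markers, were above background on only 1 of 2 FLAG IP arrays, so the size of their falls is uncertain. With normexp, a model-based background correction, Tie1 stood at -0.63 and was not called (limma adjusted p = 0.541). Hba-x stood at -2.75 and was called lower (adjusted p = 0.0411). The part of cell type in the members' values was not tested.

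In limma, 4 of the 8 members tested passed an adjusted p of 0.05 as higher in the precipitate: Pan3, Parn, Btg3 and Tob2. The share of all 15269 genes called higher was 28%, and the share called lower was 25.4%. No member was called lower. At an unadjusted p under 0.05 in limma, 6 members had a positive and 0 a negative fold change. Of all 15269 genes, 4849 had a positive and 4366 a negative one at that threshold. In 7 of the 8, all but Pabpc1, the FLAG IP arrays both lay above the input arrays, a pattern seen in 42% of all genes, and 80.2% of all genes had groups that did not overlap in either direction. The median log2 fold change was 0.80 over the members and 0.07 over all genes tested. With 2 arrays against 2, the smallest two-sided p of an exact permutation test is 0.333, so single genes were tested only in the model across all genes.

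**Figure D1:**
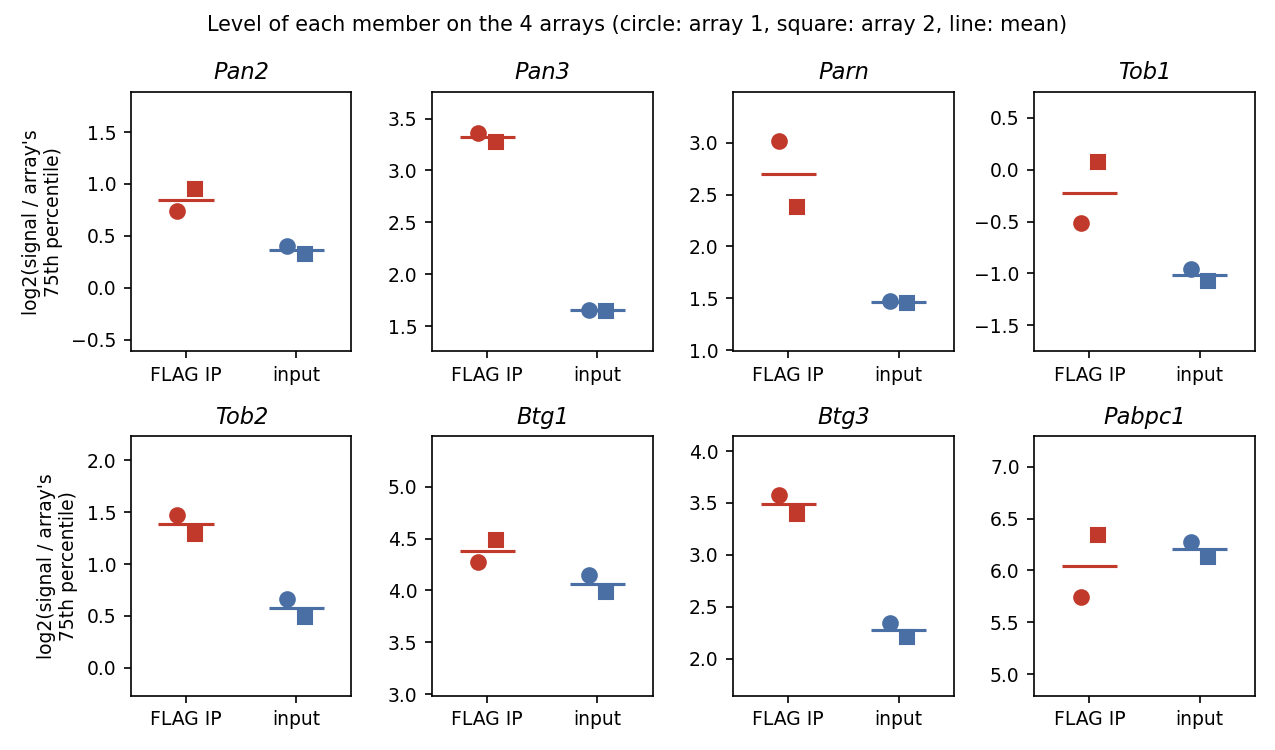
Each panel plots 1 member on the 4 arrays, FLAG IP on the left and input on the right, as log2 of the processed signal over the 75th percentile of that array; circles are array 1, squares array 2, lines the group mean, and each panel spans the same height. Pan3, Btg3, Parn and Tob2 have clear gaps between the groups, the FLAG IP arrays of Parn, Tob1 and Pabpc1 lie far apart, and the groups of Pabpc1 overlap.

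Of the PAN complex genes, Pan3 passed the test and Pan2 did not, in the probes that stood for each gene. Pan3 encodes the subunit that binds poly(A)-binding protein and recruits the nuclease. Its relative level was 10.3 and 9.65 in the FLAG IP, against 3.15 and 3.13 in the input. Both FLAG IP arrays lay far above both input arrays, and the replicates of each group nearly coincided. The log2 fold change was 1.66 ± 0.16 (SE; 3.17-fold, limma adjusted p = 0.00411), and 89.3% of all genes tested had a lower one. Before scaling, Pan3 read 574 and 5872 intensity units in the FLAG IP, against 3235 and 3252 in the input, so the position of the dimmer FLAG IP array rests on the scaling.

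Pan2 encodes the nuclease. Its relative level was 1.67 and 1.93 in the FLAG IP, against 1.32 and 1.25 in the input. The groups did not overlap, and the gap was small, with a log2 fold change of 0.48 ± 0.17 (1.39-fold) that did not pass (limma adjusted p = 0.0813). The other probe of the gene, A_52_P113100, gave relative levels of 0.150 and 0.180 in the FLAG IP, against 0.0535 and 0.0588 in the input. That probe stood at 1.55 ± 0.19 and was called higher when every probe was tested on its own (adjusted p = 0.00935), but only 1 of its FLAG IP arrays was well above background. With the mean of both probes Pan2 was called higher at 1.02 (limma adjusted p = 0.0123). The difference between the fold changes of Pan3 and Pan2 was not tested.

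Parn, the gene of the separate deadenylase, rose with a wide spread. Its relative level was 8.10 and 5.22 in the FLAG IP, against 2.77 and 2.75 in the input. Both FLAG IP arrays were higher, with replicate 1 well above replicate 2. The log2 fold change was 1.24 ± 0.27 (2.36-fold, limma adjusted p = 0.0230). Its other probe, A_52_P25567, read 0.52 ± 0.19 and did not pass among all probes (adjusted p = 0.0988), with 1 FLAG IP array well above background.

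The TOB genes, which encode the adaptors that join CCR4-NOT to poly(A)-binding protein, had nearly equal fold changes, of which that of Tob2 passed. Tob2 had relative levels of 2.78 and 2.45 in the FLAG IP, against 1.58 and 1.40 in the input. The replicates were tight in both groups, and the log2 fold change was 0.81 ± 0.18 (1.75-fold, limma adjusted p = 0.0231). A second probe of Tob2, A_52_P301103, well above background on all 4 arrays, read 1.34 ± 0.28 and also passed among all probes (adjusted p = 0.0257). Tob1 had relative levels of 0.698 and 1.05 in the FLAG IP, against 0.517 and 0.475 in the input. Both of its FLAG IP arrays were higher but far apart, and a log2 fold change of 0.79 ± 0.26, nearly that of Tob2, did not pass (limma adjusted p = 0.0661). Tob1 was called when only genes above background on all 4 arrays were tested (adjusted p = 0.0435).

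Of the BTG genes, relatives that bind the same nuclease, Btg3 passed, Btg1 did not and Btg4 was not measured. Btg3 had relative levels of 11.9 and 10.5 in the FLAG IP, against 5.09 and 4.62 in the input. All 4 values fell into separate, narrow groups, and the log2 fold change was 1.21 ± 0.17 (2.31-fold, limma adjusted p = 0.00839). Btg1 had relative levels of 19.4 and 22.4 in the FLAG IP, against 17.7 and 15.8 in the input. Its groups nearly touched, and a log2 fold change of 0.32 ± 0.18 did not pass (limma adjusted p = 0.208). The second Btg1 probe, A_52_P436258, had relative levels of 0.701 and 0.776 in the FLAG IP, against 0.780 and 0.783 in the input, and read -0.08 ± 0.17 (adjusted p = 0.713 among all probes). Btg4, which in mouse serves the clearance of maternal mRNA in maturing oocytes, was not well above background on any array. Its signal was 2.68 and 9.15 intensity units in the FLAG IP, against 3.05 and 2.06 in the input, and no fold is given.

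Pabpc1 encodes the main cytoplasmic poly(A)-binding protein, which coats the tail and is the docking site for PAN3 and the TOB proteins. Its relative level was 53.5 and 81.2 in the FLAG IP, against 77.6 and 70.0 in the input. The FLAG IP arrays enclosed the input arrays, 1 below and 1 above, and the log2 fold change was -0.16 ± 0.27 (limma adjusted p = 0.638). Its sign turned to 0.78 after quantile normalization and to 0.14 without FLAG IP replicate 1. A second probe, A_52_P204023, was well above background on both input arrays and on neither FLAG IP array, at 2.81 and 3.08 intensity units in the FLAG IP, against 42.0 and 40.2 in the input. The lowest signal that counted as measured on FLAG IP replicate 1 was too high to give that probe a bound on its fold. Pabpc1 has close paralogues and processed copies that a probe may not separate, so its values may hold signal from their RNA.

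**Figure D2:**
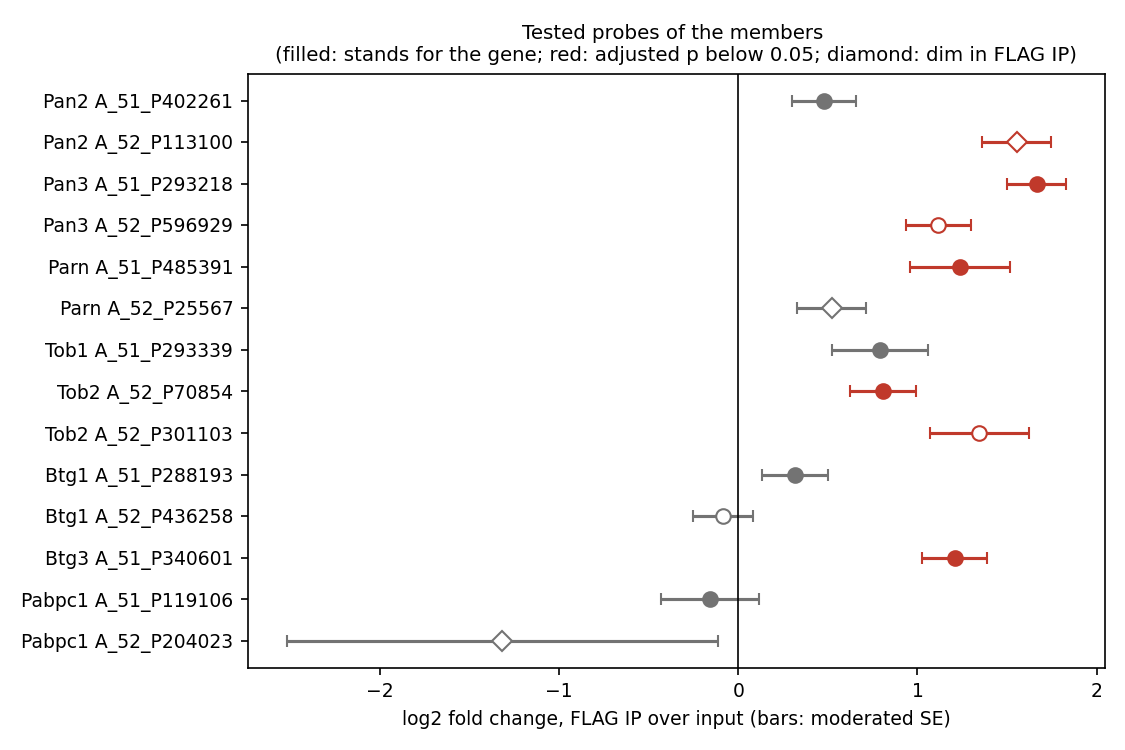
The log2 fold change of FLAG IP over input is plotted with its moderated SE for each of the 14 tested probes of the members, named by gene and probe; filled points stand for the gene, red points passed an adjusted p of 0.05 over all probes, and diamonds were below background on at least 1 FLAG IP array. Pan3 and Tob2 have 2 probes each that passed, while the probes of Pan2 and of Parn split, and those of Btg1 lie on both sides of 0.

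Over all 14 tested probes, 7 were called higher and 0 lower when every probe was adjusted together (limma), against 23.2% higher and 22.4% lower among all 26534 probes tested. Those 7 belong to Pan2, Pan3, Parn, Tob2 and Btg3. The tested members without a called probe were Tob1, Btg1 and Pabpc1. Probes of a gene share its transcripts and are not replicates.

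The calls moved with single arrays. A fit with slide as a block is the same as leaving out input replicate 1, so it is no further check. Input replicate 1 lay alone on 1 of 2 slides. With slide as a block, 0 of the 8 members were called in limma, with an adjusted p of 0.0503 for Pan3. At an unadjusted p under 0.05, 3 members were higher, beside 2847 of all 15269 genes, and 0 lower, beside 2857. Without input replicate 2, 1 was called, Pan3 (adjusted p = 0.0486). The share of all genes called higher was 9.39% without input replicate 1 and 10.1% without input replicate 2. With 1 FLAG IP array left out, the spread within the FLAG IP was not measured, and the fit takes its spread from the input arrays. Relative to the median of all genes, the 8 members lay between 0.14 and 1.62 without FLAG IP replicate 1. Without FLAG IP replicate 2 the members lay between -0.62 and 1.56, and 7 of the 8 were above that median. After normexp background correction, a model-based way to remove background, 1 member was called higher, Pan3 at 1.39 (adjusted p = 0.0418), beside 8.32% of all genes, and the other 7 lay between -0.90 and 0.97, beside a median of 0.38 over all genes. Without any scaling all 8 log2 fold changes were negative, from -2.65 to -0.82, as was the median of all genes at -2.41. Relative to that median 7 of the 8 were positive.

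**Figure D3:**
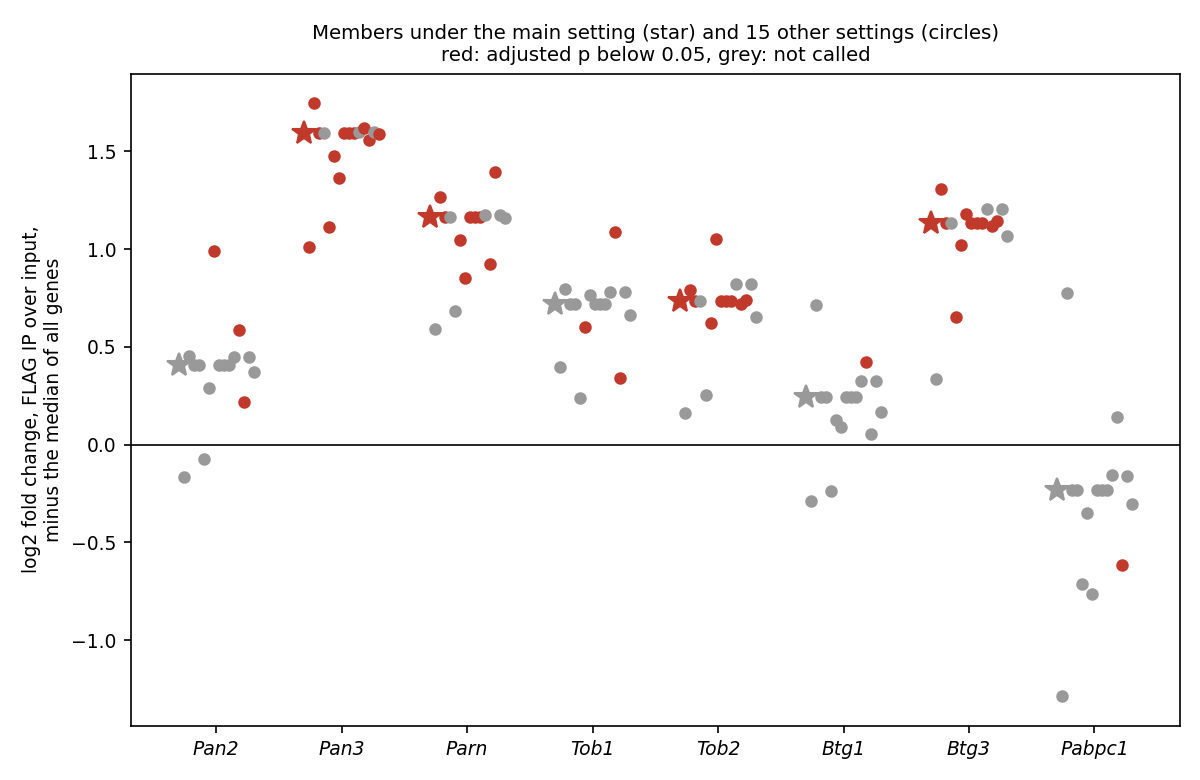
For each member the log2 fold change of FLAG IP over input minus the median of all genes is plotted under the main setting (star) and 15 other settings (circles), red where the adjusted p was below 0.05. Pan3, Parn, Btg3, Tob1 and Tob2 stay above 0 in all 15, Pan2 and Btg1 fall below 0 in 2 each, and Pabpc1 lies below 0 in 13. Not all 15 are separate checks. Median centring, no scaling, keeping marked spots, the other variance model and the replicate block left these values unchanged or nearly so. Slide as a block is the same fit as leaving out input replicate 1. Without scaling and without subtracting the median, all 8 were negative.

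The other machinery of the poly(A) tail moved in several directions. As a measure for the counts below, 28% of all genes tested were called higher and 25.4% lower in limma. Of 11 CCR4-NOT subunit genes, 4 passed as higher, 0 as lower and 7 as neither in limma, with a median log2 fold change of 0.59. Cnot4, a ubiquitin ligase subunit gene, rose by 1.22 ± 0.21, Cnot2, a core module gene, by 1.02 ± 0.28 and the scaffold gene Cnot1 by 0.77 ± 0.16. With the mean of its 3 probes Cnot2 stood at 0.15 and was not called (limma adjusted p = 0.457). Of the 5 other deadenylase genes measured, 4 rose and 0 fell, with a median of 0.92. Noct, a clock-regulated gene of the same nuclease superfamily whose protein is now known mainly as a phosphatase of NADP, rose by 3.06 ± 0.23, and its relatives Angel1 and Angel2 rose by 2.52 ± 0.35 and 0.92 ± 0.20. Without input replicate 1, or without input replicate 2, 0 CCR4-NOT genes were called and 2 of the 5 other deadenylase genes were; without FLAG IP replicate 1 the CCR4-NOT genes gave 8 of 11 higher and 1 lower, and without FLAG IP replicate 2 they gave 5 of 11 higher and 1 lower, beside the 40.6% and 44.8% of all genes called higher in those fits. Without FLAG IP replicate 2 the CCR4-NOT median was 0.16, which differed from the median of all genes by less than 0.01. After normexp background correction 0 CCR4-NOT genes were called, with a median of 0.17 beside 0.38 over all genes. Of the 5 other deadenylase genes 2 were then called higher, beside 8.32% of all genes. Angel2 stood at 0.40 there and was not called (limma adjusted p = 0.544).

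Of 13 measured genes for poly(A)-binding proteins and their partners, 5 rose and 2 fell in limma, beside 28% and 25.4% of all genes. The median log2 fold change of the list was 0.67. That median was 0.18, with 2 higher and 2 lower, when all probes of a gene were averaged, 0.25 after normexp background correction, 0.13 below that of all genes, and 0.39 without FLAG IP replicate 1. Mkrn3, a ubiquitin ligase gene, rose by 3.37 ± 0.30, Larp4b, a gene of a binding partner, by 1.91 ± 0.16 and Paip1, a gene of a translational coactivator that binds PABPC1, by 1.79 ± 0.26. Of the 3 Paip1 probes, 1 was called higher on its own, and their mean stood at 0.23 and was not called (limma adjusted p = 0.350). The paralogue Pabpc4 fell by 1.36 ± 0.21 and Pabpn1, the nuclear poly(A)-binding protein gene, fell by 1.12 ± 0.31 on the log2 scale. Pabpn1 and Cnot2 had 3 probes each, none of which passed when every probe was tested on its own. With slide as a block, 3 genes of this list were called higher and 0 lower in limma, beside 9.39% and 10.1% of all genes. The list median was 0.62 without input replicate 2.

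Genes that lengthen tails or add other bases were measured beside those that shorten them. Of 12 genes for poly(A) polymerases and terminal nucleotidyltransferases, 7 rose and 1 fell in limma, beside 28% and 25.4% of all genes. The median log2 fold change of the list was 0.68. Tent4b, Tent5b and Tent4a, genes of noncanonical poly(A) polymerases, rose by 2.50 ± 0.15, 2.37 ± 0.26 and 2.18 ± 0.17. Tut1, the gene of the U6 RNA uridylyltransferase, fell by 0.84 ± 0.17 on the log2 scale. With slide as a block, 3 of the 12 genes were called higher and 0 lower in limma, beside 9.39% and 10.1% of all genes. The list median was 0.64 without input replicate 2. Of 8 genes for a TOB/BTG relative, kinases and partners, 1 rose and 1 fell, with a median of -0.14 that turned to 0.22 when all probes of a gene were averaged. Rps6ka1, a kinase gene of the MAP kinase pathway, rose by 1.75 ± 0.27, and Prmt1, the gene of an arginine methyltransferase that binds BTG1, fell by 2.37 ± 0.16 on the log2 scale. Btg2, the closest relative of Btg1, stood at -0.77 ± 0.35 and did not pass (limma adjusted p = 0.133). With the mean of its probes Btg2 was called lower at -0.80 (limma adjusted p = 0.0192), beside 25.7% of all genes. It stood at -0.33 without FLAG IP replicate 1 and at -1.21 without FLAG IP replicate 2.

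**Figure D4:**
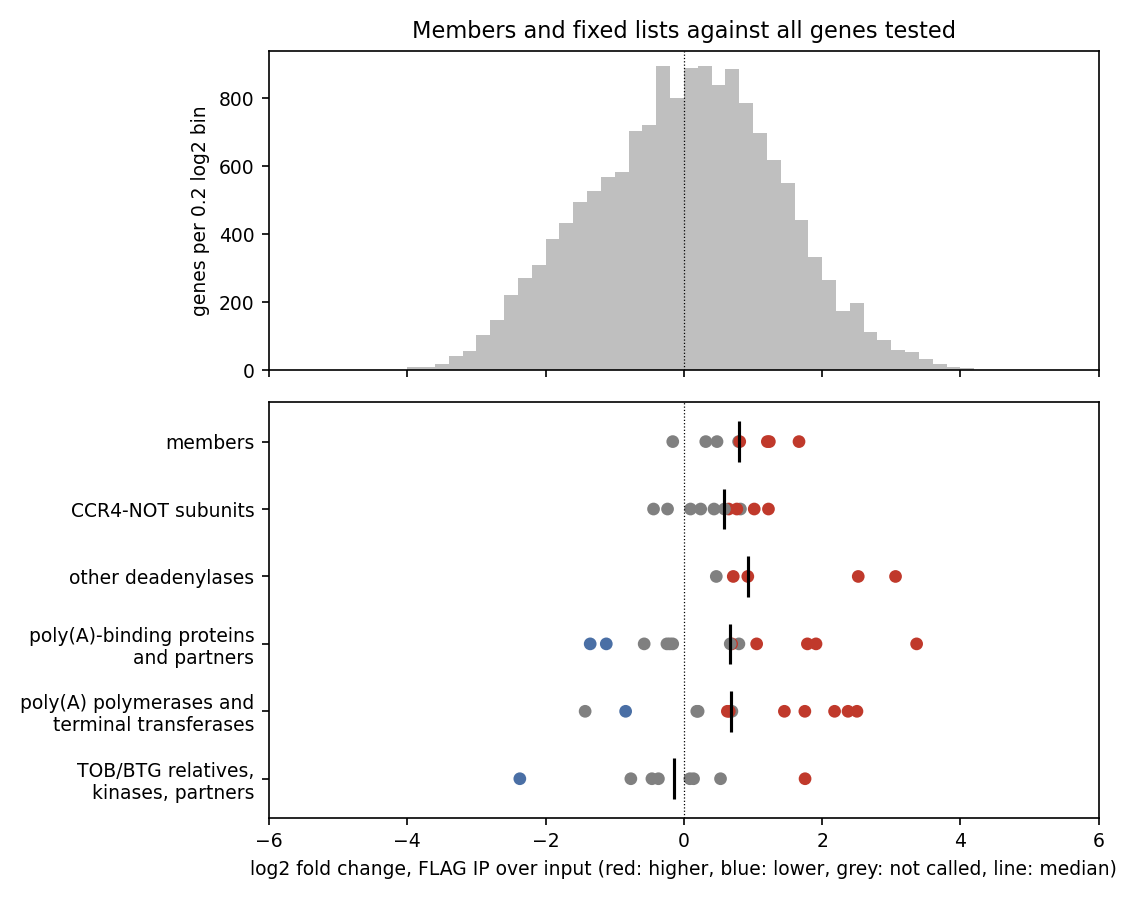
The upper panel counts all genes tested by their log2 fold change of FLAG IP over input in bins of 0.2; the lower panel places the 8 tested members and the genes of 5 lists on the same axis, red where called higher, blue where called lower and grey where not called, with a line at the median. The medians of the members and of 4 lists lie between 0.59 and 0.92, and that of the TOB/BTG relatives, kinases and partners lies at -0.14.

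For each member the closest other gene was taken by Euclidean distance over the 4 relative log2 levels. The nearest to Pan3 was Herc4, a ubiquitin ligase gene, at a distance of 0.0486 and a log2 fold change of 1.67. Pan2 lay nearest to Tdrd12, a Tudor domain gene of the piRNA pathway, at 0.0593. Tob1 lay nearest to Rims3, a gene of the presynaptic active zone, at 0.0998. Tob2 lay nearest to Rprd1b at 0.130, Btg3 to Ythdf2, a gene of a reader of methylated adenosine, at 0.135, and Parn to Exd1 at 0.180. Btg1 lay nearest to Gmnn, the gene of a DNA replication inhibitor, at 0.225, and Pabpc1 to Eef1a1, a translation elongation factor gene with many processed copies, at 0.329. With 4 arrays and 15269 genes, a small distance says only that the values are alike.

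In the authors' deposited table, the ratio of FLAG IP to input was 2.92 for the main Pan3 probe, 2.17 for Parn, 2.12 for Btg3 and 1.61 for Tob2. For the 14 tested probes the authors' ratio in the deposited table was between 0.918 and 0.921 of the fold computed here.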

How the data were processed

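Per the file headers and the submitters' processing notes, the arrays were read with Agilent Feature Extraction 9.5, which gives each spot a background-corrected processed signal as intensity. Marks (other values of 0 or 1) for outliers, saturation and signal well above background are deposited beside it. The authors' deposited table holds a ratio to input, p-values per group that were not used, and a pooled raw intensity, which equalled the mean processed signal within 1% for 99.8% of probes in the FLAG IP and 99.9% in the input.

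Here, log2 of the processed signal was taken minus the 75th percentile of the 43379 non-control spots of each array; 0 were saturated. Values marked as outliers (90 and 104 on the FLAG IP arrays, 61 and 52 on the input arrays) were left out, and repeated spots were averaged. A probe entered if its signal was marked as above background on 2 of 2 arrays of the FLAG IP or of the input, and the brightest probe stood for a gene. Names came through gene IDs or older symbols from the RefSeq table of assembly GRCm38.p6 (31004 and 309 probes), or were kept as filed. FLAG IP was compared with input by the two-sided moderated test of limma (version 3.58.1; R version 4.3.3), without a block and with 2 residual and 2.08 prior degrees of freedom, with Benjamini-Hochberg adjustment over all 15269 genes. The limma fit was tested on simulated data, and the steps before it were not. The number of arrays limits the precision.

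The members and lists were chosen with earlier results of these data known. Named were all members, Nanos2, up to 3 called genes per direction of each list other than the markers, the nearest gene to each member and, outside that rule, Btg2. Named markers were taken from those with the largest absolute log2 fold changes, so they are the extremes of their lists. Normexp used median signals, since no mean signal was among the columns. The alternatives covered background correction, scaling, filters, probe choice, variance model, blocks and each array left out.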

Additional observations from a re-analysis of the deposited data

How the results depend on the processing

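In the main analysis 4275 genes were called higher and 3883 lower, with 4 members higher and 0 lower. Normexp background correction left 1270 genes higher, 1397 lower and 1 member higher. Without scaling, limma called 0 genes higher, 0 lower and 0 members higher (0 genes higher and 4047 lower at an unadjusted p under 0.05). Slide as a block left 1433 higher, 1549 lower and 0 members higher, which is the same fit as leaving out input replicate 1. With every probe on its own, 6167 of 26534 probes (23.2%) were higher and 5955 (22.4%) lower. Leaving out 1 array in turn gave 1433 to 6846 genes higher, 1549 to 6213 lower, 0 to 7 members higher and 0 to 1 lower; a lone array was assumed to vary like the other group. A fit with array number as a replicate block gave 4130 genes higher, 3875 lower and 4 members higher; same-numbered arrays deviated with a correlation of 0.0497 over genes, and no label ties a number to a shared gonad preparation. Under that block 2 of 11 CCR4-NOT genes were called. With no filter on dim probes all 9 members were tested and 3 were higher, beside 16.8% of all 20161 genes. Among those 3 was Btg4, which was above background on no array. Parn (adjusted p = 0.0631) and Tob2 (0.0612) were then not called in limma.

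Values that changed sign without scaling were -2.01 for Pan2, -0.82 for Pan3, -1.25 for Parn, -1.69 for Tob1, -1.68 for Tob2, -2.17 for Btg1, -1.28 for Btg3, -0.61 for Nanos2, -1.26 for Cnot4, -1.47 for Cnot2, -1.72 for Cnot1, -0.58 for Larp4b, -0.70 for Paip1, -1.56 for Angel2, -0.11 for Tent5b, -0.31 for Tent4a, -0.73 for Rps6ka1, -0.37 for Dazl, -0.80 for Ddx4, -1.99 for Tdrd12, -0.82 for Herc4, -1.17 for Exd1, -1.66 for Rims3, -1.56 for Rprd1b, -2.14 for Gmnn and -1.38 for Ythdf2, beside a median of -2.41 over all genes. Relative to the median of all genes, the values of the 49 named genes differed by less than 0.001 from those with scaling, so these sign changes are the common offset that scaling removes. Gmnn also turned to -0.19 after normexp. Pabpc1 and Eef1a1 turned to 0.78 and 0.62 after quantile normalization, and to 0.14 and 0.18 without FLAG IP replicate 1; leaving out 1 array in turn gave -0.46 to 0.14 for Pabpc1 and -0.78 to 0.18 for Eef1a1. The cause of these last changes, and of the calls lost after normexp, was not tested.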

Other observations

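The 5 highest ratios of the members in the authors' deposited table belonged to the 5 probes that were well above background on none of the 4 arrays. Btg4 had a ratio of 9.98, 1 Tob2 probe 4.85, and 2 of the 3 Pan3 probes 3.67 and 3.61 in the authors' deposited table, and the highest ratio of a tested member probe there was 2.92. The signals behind the Pan3 ratios were 1.82 to 2.49 intensity units in the FLAG IP, against 2.32 to 4.49 in the input, while the 75th percentile used to scale FLAG IP replicate 1 was 55.7 and that of FLAG IP replicate 2 was 608. Relative to those percentiles the same probes read 0.0326 to 0.0400 on FLAG IP replicate 1 and 0.00363 to 0.00409 on FLAG IP replicate 2, against 0.00224 to 0.00438 in the input.

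Btg1 and Pabpc1, the members that lay closest to no change, belonged to the brightest of 10 groups of genes of nearly equal size, split by spot signal over the 4 arrays. The median log2 fold change of that group was -0.21, against 0.03 in the group that held Pan3 and Btg3. Whether brightness plays a part in the values of Btg1 and Pabpc1 was not tested.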
